A study of Canis lupus familiaris with 32 samples.

Results

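Hip joint capsules of newborn dogs were compared with those of adult control dogs, using 6 young and 5 adult control libraries of 32 in a series on canine hip dysplasia. The libraries were chosen by their sample titles. Young dogs were under 1 month of age, and controls were labelled adult with no age given. Each of the 11 libraries came from a different dog, 3 of the young dogs and 1 control also gave a teres ligament, and no treatment or breed is given in the labels. The identifier of 1 young dog (young replicate 2) begins like those of the affected dogs aged 4 months. Those of young replicates 3 and 5 and control replicate 4 begin with I, as does that of 1 affected adult that gave a capsule. That of control replicate 5 begins with E, as does that of 1 affected adult that gave a ligament. What these beginnings stand for is not given.

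The joint capsule is the sleeve of dense connective tissue that holds the femoral head in the acetabulum, with an outer fibrous layer of fibroblasts and collagen and an inner synovial lining. Around birth such tissue grows and lays down matrix quickly, whereas adult capsule turns its matrix over slowly. A bulk library averages over all cells of the tissue, so fewer cells of a type and less RNA per cell cannot be told apart. The gene IDs in the files are not paired with names, and the tissue label was therefore not checked against marker genes.

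Young and adult capsules separated along the main axis of difference among the 11 libraries. The first principal component of log2 CPM (fragments per 1000000, on a log scale) held 55.8% of the variance and the second 13.4%. The 6 young libraries stood between 28.7 and 66.2 on the first component, and the 5 controls stood between -67.3 and -40.5. Young replicate 2 was the young library nearest the controls, and control replicate 3, at -40.5, was the control nearest the young dogs. The second component did not follow age: it ran from -35.5 to 30.9 among young libraries and from -40.2 to 30.3 among controls.

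**Figure D1:**
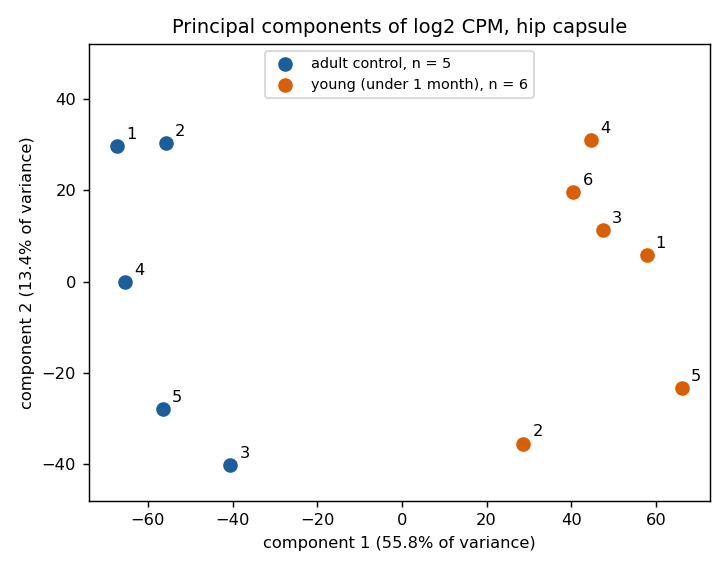
Principal component scores of log2 CPM for 6 young and 5 adult control capsules, with replicate numbers beside the points. The first component (55.8% of variance) holds all young libraries at 28.7 or higher and all controls at -40.5 or lower, while the groups overlap on the second.

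Libraries of 1 group resembled each other more than they resembled the other group. Pearson correlations of log2 CPM across genes ran from 0.913 to 0.971 (median 0.953) over the 15 pairs of young libraries. They ran from 0.905 to 0.96 (median 0.934) over the 10 control pairs, and from 0.774 to 0.885 (median 0.84) over the 30 pairs of a young and a control library. The ranges within and between groups did not overlap. Genes varied somewhat more among adults: the biological coefficient of variation common to all tested genes was 31.6% in 5 controls and 26.9% in 6 young dogs. The SD of log2 CPM was larger in controls for 61.3% of tested genes. That SD was not taken at equal depth and also holds the noise of counting. Control libraries were shallower on average, and how much of the larger SD goes with depth was not tested. With 1 library left out at a time, the coefficient stayed between 29.2% and 33.1% in controls and between 23.8% and 28.1% in young dogs, lowest in the latter without young replicate 2.

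The libraries also differed in depth and make-up. Totals ran from 4330476 to 6351800 fragments (median 5964812) in young dogs. In controls they were 2857235, 4836831, 4819775, 3955723 and 5098801 fragments for replicates 1 to 5. Young libraries thus averaged 5568812 fragments and controls 4313673, with overlapping ranges (two-sided exact permutation p = 0.0433, adjusted over 4 library values 0.0498). With any 1 of 9 of the 11 libraries left out, this difference did not pass.

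On average, young libraries held a larger share of their fragments in a few genes. The 10 most abundant genes of a library held 21.5% to 32.2% of fragments in young dogs (median 27.9%). They held 20.6%, 18.7%, 20.4%, 25.3% and 20.6% in controls. The young mean was 27.7% ± 4.42 (SD, n = 6) and the control mean 21.1% ± 2.45 (n = 5), a difference of 6.62 percentage points (exact permutation p = 0.013, adjusted 0.026). Young replicates 1, 4 and 6, at 24.9%, 21.5% and 25.4%, lay in or near the control range, and replicates 2, 3 and 5 lay at 30.4% or above. The difference did not pass without control replicate 1 or control replicate 5 (adjusted p = 0.0571 each). From 110 to 363 genes made up the upper 50% of fragments in a young library, and from 327 to 428 in a control.

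At equal depth, young libraries had a fragment in slightly fewer genes, 15104 ± 140 (SD, n = 6) against 15383 ± 219 (n = 5). The difference of -279 genes was at the edge of the threshold (exact permutation p = 0.0498, adjusted 0.0498) and did not pass with any 1 of 9 libraries left out. It rests on 1 random thinning, and other draws were not tested. Counted as genes with at least 1 CPM without thinning, a different measure, the difference was -431 genes (exact permutation p = 0.00649, adjusted 0.013). Long genes were lower against short genes in young dogs. The mean log2 CPM of the longest 25% of tested genes minus that of the shortest 25% ran from 1.6 to 1.87 in young libraries (median 1.72). It was 2.09, 2.15, 1.96, 2.11 and 2.13 in controls. The groups did not overlap, and the difference was -0.36 (exact permutation p = 0.00216, the smallest possible, adjusted 0.00866).

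**Figure D2:**
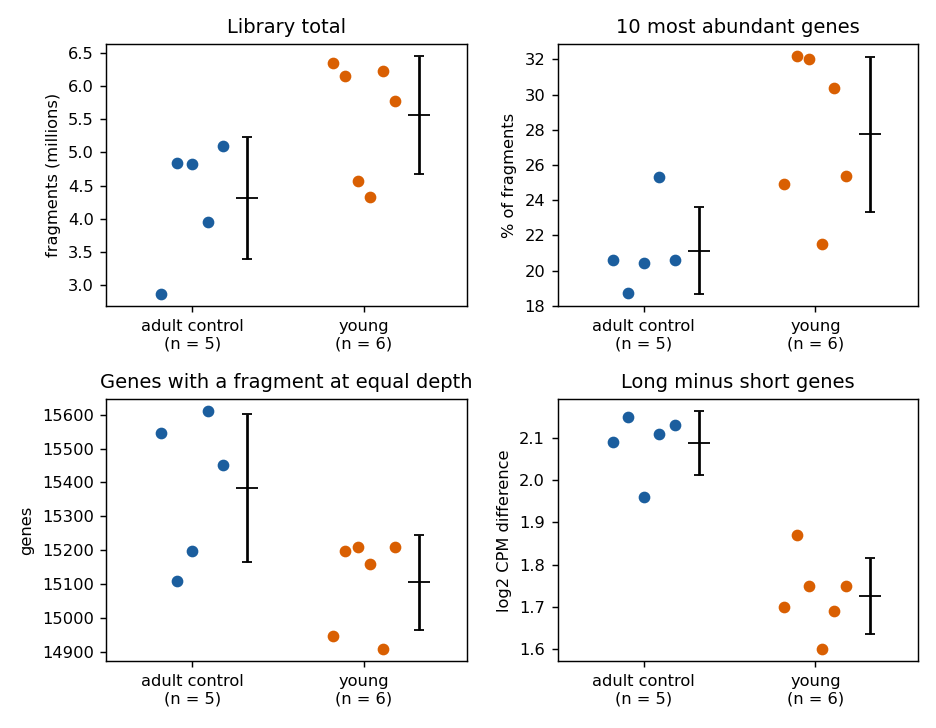
Values of each library by group: total fragments (axis in units of 1000000), percent of fragments in the 10 most abundant genes, genes with a fragment at equal depth, and log2 CPM of long minus short genes. Points are libraries and the bars give mean and SD. The last panel is the 1 in which the groups do not overlap (1.6 to 1.87 in young, 1.96 to 2.15 in control).

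A large part of the measured transcripts differed between newborn and adult capsule. Of 12589 genes, 4833 (38.4%) were called between young and control capsule with edgeR's quasi-likelihood test, 2362 (18.8%) higher and 2471 (19.6%) lower in young dogs. The median called change was 0.93 on the log2 scale for higher genes and -0.96 for lower genes, and the median over all tested genes was 0.01. Estimated changes reached 2-fold at 1052 higher genes (8.36%) and 1164 lower genes (9.25%). A test against a change of 2-fold (edgeR glmTreat) called 717 genes (5.7%), 370 higher and 347 lower. At equal depth the test gave 4039 calls, and 3889 of these genes were in the set of 4833 with the same direction.

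Under 2-fold, called increases and decreases were nearly equal in number, at 1310 and 1307. From 2-fold up, called increases outnumbered called decreases only beyond 8-fold. Between 2-fold and 4-fold, 701 genes were called higher and 907 lower, and between 4-fold and 8-fold the counts were 179 each. Beyond 8-fold, 172 genes were called higher and 78 lower. Of those, 57 higher and 25 lower genes lay beyond 16-fold. In 9 of the 57 the controls held 3 fragments or fewer over all 5 libraries, so their fitted size depends on the prior count. Each of the 25 lower genes had more than 3 fragments over the young libraries.

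**Figure D3:**
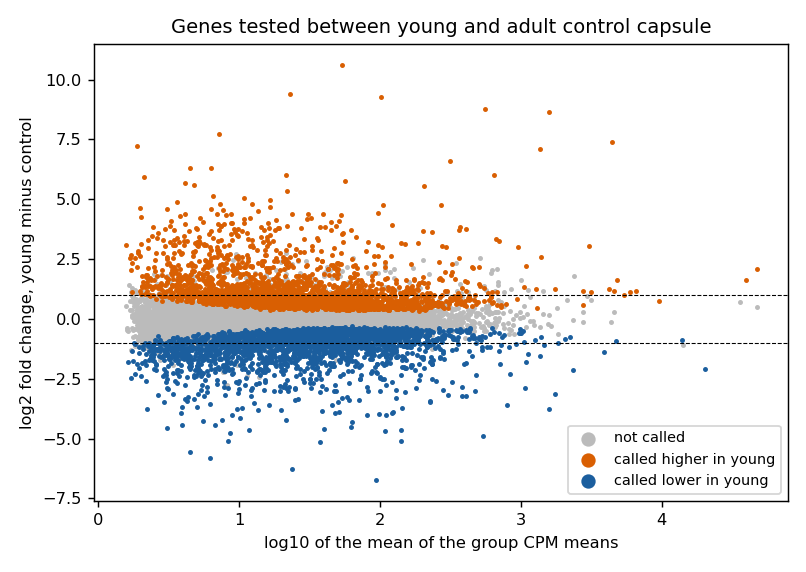
Log2 fold change of each of 12589 tested genes, young minus control, against the log10 of its mean CPM, with called genes in colour and dashed lines at 2-fold. The points furthest from 0 are mostly increases: beyond 8-fold, 172 genes were called higher and 78 lower.

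Few genes were seen in all dogs of one age and in none of the other. At equal depth, 8 genes had a fragment in all 6 young libraries and in no control, and 15 had one in all 5 controls and in no young library. The median was 6 fragments per library in the former and 3 in the latter, and the highest values in a library were 859 and 50 fragments. Only 3 of the 8 and none of the 15 passed the filter on low counts, and those 3 were called higher. On the counts as deposited the balance turned, to 17 genes in young dogs alone and 7 in controls alone. The highest values were then 34 and 75 fragments, so the gene with 859 fragments did have fragments in controls before thinning. Of the 17, only 1 passed the filter, and it was called higher, while none of the 7 passed. Against this, 12495 genes had a fragment in all 11 libraries at equal depth, and 13497 as deposited.

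For many genes every young dog differed from every adult. At 1238 genes (9.83% of those tested) all 6 young libraries lay above all 5 controls, and at 1239 (9.84%) all lay below. Of the genes called higher, 1224 (51.8%) were separated in this way, as were 1218 (49.3%) of those called lower. Scaling bore on this balance: with library totals alone the counts were 649 above and 1933 below. That scaling moved the median log2 change of all tested genes to -0.18, and 30.3% of called genes were then higher, against 48.9% with TMM.

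Near misses gathered in a pair of libraries. Control replicate 3 was the sole library within the range of the other group at 992 genes, and young replicate 2 at 733. The other 9 libraries were so at 90 (young replicate 1) to 484 genes (control replicate 2). Young replicate 2 also had the lowest share of fragments in genes called higher, 29.8%, where the other young libraries had 38.5% to 42.6% and the controls 12.1% to 19.6%. These shares were chosen by the test itself and are a description. Without young replicate 2, 4919 genes were called, and without control replicate 3, 5132.

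A single dog seldom held most of the fragments of a called gene. In 6 of 2362 higher genes (0.254%), 1 young library held over 50% of the summed young CPM, and it was young replicate 5 in all 6. In 19 of 2471 lower genes (0.769%), 1 control held over 50%, and in 14 of these it was control replicate 3. When each library was left out in turn, 1726 of the higher genes (73.1%) and 1819 of the lower genes (73.6%) were called in the same direction in all 11 fits. The remaining calls were lost in at least 1 of these fits.

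Calls were also counted by level, with no test between the classes. Of 72 genes with a mean over 1000 CPM, 23 (31.9%) were called higher and 18 (25%) lower, 20 and 10 of them by at least 2-fold. The mean TMM-scaled CPM of these 72 genes summed to 44.1% of 1000000 in young and 30.2% in control capsules. TMM-scaled CPM need not sum to 1000000 over all genes, so these values are not shares of the fragments. Among 7552 genes at 10 to 100 CPM, 19.3% were called higher and 20.4% lower, and among 3477 genes at 1 to 10 CPM, 15.9% and 15.8%. Of the 100 genes with the highest mean CPM in young dogs, 63 were also among the 100 highest in controls.

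Gene length moved with the direction of change. In the shortest 25% of tested genes, whose median length was 0.316 of the overall median, 27.8% were called higher and 10.5% lower in young dogs, with a median log2 change of 0.26. In the longest 25%, at 2.42 times the overall median, 13.7% were called higher and 28.5% lower, with a median of -0.16. The same held among genes of like level: at 10 to 100 CPM the shares were 36.2% and 11.1% in the shortest class and 13.6% and 28.2% in the longest. Across genes, which are not independent replicates, the log2 change and relative length had a Spearman rho of -0.21.

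With each library's trend of level on gene length removed, 4468 genes were called, 2236 higher and 2232 lower, and 4030 of these belonged to the 4833 with the same direction. The shares were then 16.3% higher and 15.2% lower in the shortest class and 19.4% and 19.1% in the longest. This setting was chosen after seeing the data.

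**Figure D4:**
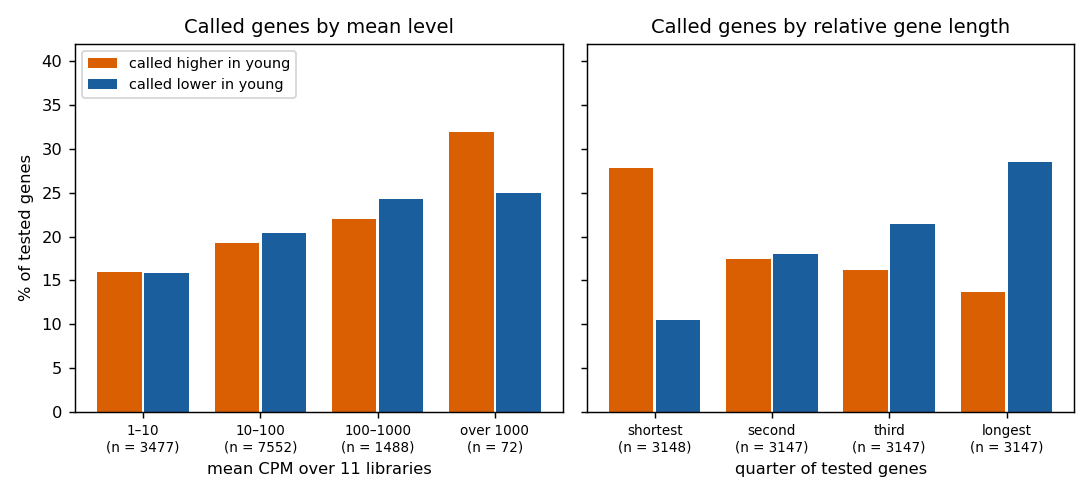
Percent of tested genes called higher or lower in young capsule, by mean CPM over the 11 libraries (left) and by 4 equal classes of relative gene length (right), with the number of genes tested in each class. Calls rise with level in both directions, and higher calls fall from 27.8% in the shortest to 13.7% in the longest class.

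Among called genes of at least 2-fold whose groups did not overlap, the 2 most abundant in each direction are shown library by library. Their separation was thus part of the choice and is a description. ENSCAFG00000002069 had the highest mean CPM of all genes in young capsules, although in young replicates 2 and 5 another gene held more fragments (10% and 7.04% against 5.72% and 6.5%). It ran from 59133 to 104903 CPM in young dogs (median 74623). In control replicates 1 to 5 it stood at 19096, 23389, 17562, 24968 and 5799 CPM. The lowest young library was far above the highest control, and control replicate 5 was well below the other controls. The means of ENSCAFG00000002069 were 76859 ± 16268 CPM (SD, n = 6) and 18163 ± 7545 CPM (n = 5), which is 4.23-fold higher in young dogs (log2 2.08, SE 0.338, edgeR adjusted p = 0.00033). It alone took 5.72% to 9.26% of all fragments of a young library, against 0.601% to 2.59% of a control.

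ENSCAFG00000022723 had rank 8 by level in young capsules. It ran from 6004 to 16375 CPM in young dogs (median 7911). Controls had 2840, 2622, 5946, 2786 and 5995 CPM in replicates 1 to 5. The groups touched: control replicates 3 and 5 lay just under the lowest young library, and young replicate 5 stood far above the others. As a plain share of fragments, ENSCAFG00000022723 overlapped between the groups, since young replicate 3 had 0.583% and control replicate 3 had 0.646%. The means were 9113 ± 3813 and 4038 ± 1766 CPM, 2.26-fold higher (log2 1.17, SE 0.324, edgeR adjusted p = 0.011). Without young replicate 5 the log2 change of ENSCAFG00000022723 was 0.93 (adjusted p = 0.025).

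ENSCAFG00000014345 had the second highest mean CPM in adult capsules. Controls had 31497, 17664, 27587, 43903 and 45493 CPM in replicates 1 to 5. Young dogs ran from 5152 to 10404 CPM (median 7810). The lowest control was above the highest young library, and the controls differed among themselves more than the young did. The means of ENSCAFG00000014345 were 7800 ± 1769 CPM in young and 33229 ± 11634 CPM in controls, 4.26-fold lower in young dogs (log2 -2.09, SE 0.273, edgeR adjusted p = 6.5e-05).

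ENSCAFG00000000178 had rank 10 by level in adult capsules. Controls had 6875, 6648, 4113, 5211 and 5503 CPM in replicates 1 to 5. Young dogs ran from 1403 to 3146 CPM (median 2236), all below the controls. The means were 2199 ± 658 and 5670 ± 1126 CPM, 2.58-fold lower in young dogs (log2 -1.37, SE 0.235, edgeR adjusted p = 0.00049). This is a long gene, at 6.48 times the median relative length, and with the length trend removed the log2 change of ENSCAFG00000000178 was -0.96 (adjusted p = 0.004).

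**Figure D5:**
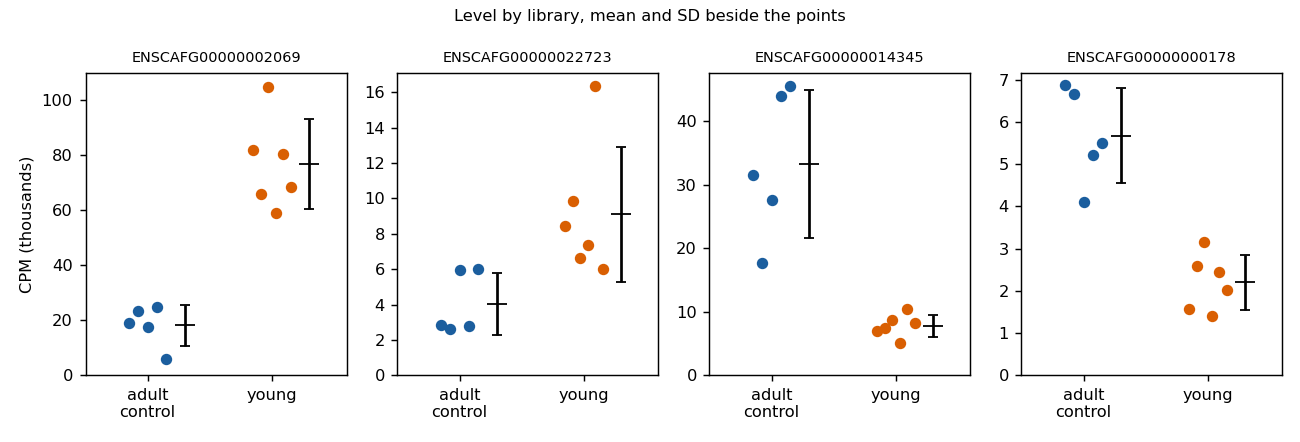
CPM (axis in units of 1000) of 4 abundant genes in 5 adult control and 6 young capsules, with mean and SD beside the points. ENSCAFG00000002069 and ENSCAFG00000022723 are higher in young dogs and ENSCAFG00000014345 and ENSCAFG00000000178 lower, and the groups come closest at ENSCAFG00000022723 (5995 CPM in the highest control, 6004 in the lowest young library).

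Levels of these genes can be set side by side per unit of gene length. On the deposited FPKM scale, ENSCAFG00000002069 averaged 14000 ± 3011 FPKM in young and 3300 ± 1359 in control capsules. ENSCAFG00000014345 averaged 1034 ± 247 FPKM in young and 4457 ± 1620 in controls. The first was thus far above the second in young dogs, while in adults the second was higher by less than its SD. ENSCAFG00000022723, a short gene at 0.633 of the median length, averaged 6854 ± 2877 FPKM in young and 3043 ± 1353 in controls. ENSCAFG00000000178 was the lowest of the 4 in both groups, at 161 ± 49.8 and 415 ± 82.2 FPKM.

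The levels of these 4 genes in the other hip tissues of the series are given on 1 TMM scale over all 32 libraries, as a description. ENSCAFG00000002069 stood at 80658 ± 16935 CPM (n = 6) in young capsules and 79899 ± 11383 CPM (n = 4) in young ligaments. It was at 14834 ± 1218 CPM (n = 3) in embryonic hip, near the adult control capsules at 18710 ± 7714 CPM (n = 5). Capsules of affected dogs aged 4 months lay between young and adult capsules, at 54837 ± 8008 CPM (n = 3), and the 1 capsule from an affected adult had 25082 CPM. The level was thus highest in the newborn tissues, and the ranges of young capsules (62472 to 109736 CPM) and of capsules at 4 months (45778 to 60970 CPM) did not overlap.

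In capsule, ENSCAFG00000014345 ran from lowest in young dogs to highest in adults, and embryonic hip was lower still. It averaged 3172 ± 100 CPM (n = 3) in embryonic hip, 8179 ± 1810 CPM (n = 6) in young capsules, 20046 ± 2909 CPM (n = 3) in affected capsules at 4 months and 34221 ± 11810 CPM (n = 5) in adult control capsules. The first 3 ranges did not overlap, whereas the adult controls (18588 to 47482 CPM) overlapped those at 4 months (17126 to 22943 CPM). The 1 capsule from an affected adult had 64441 CPM of ENSCAFG00000014345. ENSCAFG00000000178 averaged 870 ± 65.8 CPM in embryonic hip, 2305 ± 677 in young capsules, 4417 ± 1281 in affected capsules at 4 months and 5852 ± 1159 in adult controls, the last pair with overlapping ranges. Embryonic samples were whole hip, and the dogs aged 4 months were all affected, so tissue or disease cannot be told apart from age there.

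ENSCAFG00000022723 averaged 9550 ± 3931 CPM (n = 6) in young capsules, 6772 ± 4299 (n = 4) in young ligaments, 5032 ± 1908 (n = 3) in affected capsules at 4 months, 4181 ± 1868 (n = 5) in control capsules and 3379 ± 272 (n = 3) in embryonic hip. Its ranges in young capsules and young ligaments overlapped. Affected ligaments did not show the order of the capsules at each gene. ENSCAFG00000002069 averaged 24462 ± 11138 CPM (n = 3) in ligaments at 4 months and 24266 ± 12219 CPM (n = 4) in those of affected adults, both far below young ligaments. ENSCAFG00000000178 averaged 2761 ± 136 CPM in ligaments at 4 months, near the 2696 ± 875 CPM of young ligaments, and 6842 ± 1396 CPM in those of affected adults. ENSCAFG00000014345 averaged 15368 ± 1314 CPM in young ligaments, 21587 ± 4442 CPM at 4 months and 46099 ± 18873 CPM in affected adults.

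In ligament, 1310 of 12701 genes (10.3%) were called between 4 young and 3 control libraries, and 2 of these 4 genes were called. Capsule had 6 and 5 libraries, so the numbers called in the 2 tissues do not compare the size of their age differences. ENSCAFG00000002069 had a log2 change of 2.32 (SE 0.403, edgeR adjusted p = 0.0079) and ENSCAFG00000014345 one of -1.11 (SE 0.252, adjusted p = 0.023). ENSCAFG00000022723 stood at 1.39 (SE 0.48, adjusted p = 0.1) and ENSCAFG00000000178 at -0.97 (SE 0.344, adjusted p = 0.11). The interaction of age and tissue, which called 5 of 13548 genes (0.0369%), was not past the threshold for any of the 4. The largest difference was -0.96 (SE 0.38, edgeR adjusted p = 0.27) for ENSCAFG00000014345, whose young level was 15368 ± 1314 CPM (n = 4) in ligament and 8179 ± 1810 CPM in capsule. Libraries were treated as independent in that fit although 4 dogs gave both tissues.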

How the data were processed

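Per the labels' protocols, ribosomal RNA was removed from total RNA and directional libraries were built. The submitters' processing notes name canFam3 together with Cuffdiff 2.2.1, TopHat2 2.0.13, Bowtie2 2.2 and cutadapt 1.8. No role of a tool, annotation release or use of strand is stated there. The authors deposited, per the file headers, an estimated count of fragments per gene and library. They also deposited a scaled fragment signal, a fixed multiple of that count within a library, and FPKM. Of the estimated counts, 0.332% were off a whole number by more than 1e-06, and all were rounded. The status FAIL stood at 2 values of the 11 libraries, which were kept. The deposited table lists 24580 Ensembl gene IDs, of which 0 matched the RefSeq gene table used here, so gene lists and cell type markers could not be tested and genes are printed by ID.

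Counts were tested with edgeR 4.0.16 in R 4.3.3 (filterByExpr, TMM scaling, robust quasi-likelihood F test, Benjamini-Hochberg adjustment over all tested genes, called at an adjusted p under 0.05). Standard errors were derived from the F statistic. CPM is the fragment count per 1000000 of the TMM-scaled library total. Log2 CPM used a prior count of 2. Relative gene length is the deposited scaled signal divided by FPKM. Equal depth means random thinning to 2857235 fragments. Alternatives used DESeq2 1.42.0, limma 3.58.1 and deposited FPKM. The genes named are the called genes of at least 2-fold without overlap between the groups that had the highest mean CPM in their higher group, held to 2 in each direction because no symbol was matched. Comparisons and rules were chosen with earlier results of these data known. On simulated counts, edgeR found 93 of 97 genes with a 4-fold and 63 of 98 with a 2-fold change, and called 5 unchanged genes, among 12421 tested. The simulation changed few genes, as many up as down, with no other difference in make-up between the groups. In the data 4833 genes were called, so these rates need not hold there.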

Additional observations from a re-analysis of the deposited data

Results flagged for a closer look

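The share of fragments in the 10 most abundant genes was 25.3% in control replicate 4, apart from the other controls, which lay between 18.7% and 20.6%. ENSCAFG00000022723 stood at 16375 CPM in young replicate 5, apart from the other young libraries, the next of which had 9867 CPM. In all, 16 groups of values were checked for a library that stands apart, and chance alone gives about 5% of such groups.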

How the results depend on the processing

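The 5 counts of called genes kept within 1.5 times of their values under every alternative run except 1: with library totals alone 1452 genes were called higher (2362 with TMM). That scaling also changed the counts of separated genes, to 649 above and 1933 below. With it, 766 genes were called higher and 1605 lower by at least 2-fold (1052 and 1164 with TMM). Against 1.5-fold in place of 2-fold, glmTreat called 1772 genes. DESeq2 called 5479 genes, 4789 shared in direction with the 4833. No alternative called a shared gene in the opposite direction. Among dogs whose identifiers start with G or I (4 young, 3 controls) 4166 genes were called, and among dogs that gave no ligament 3816. Those 2 settings were chosen after seeing the data. Leaving out 1 library gave 4082 to 5132 called genes, differences of 891029 to 1502806 fragments in library total, 5.72 to 7.87 percentage points in the 10-gene share, -347 to -222 detected genes and -0.392 to -0.334 in the length contrast. The adjusted p of the length contrast reached at most 0.0317, and that of detected genes and totals 0.124. With the replicate number as a block 3464 genes were called, 3358 of them shared. Same-numbered young and control libraries came from different dogs. Of these 5 pairs, 1 deviated together (correlation over 0.1), and so few pairs cannot show whether a number stands for anything shared. The 4 named genes kept their direction and call in every alternative fit that gave their values. P-values set the difference between groups against the spread between dogs of these groups. In the fit of age and tissue it was the spread between libraries, since some dogs gave both tissues.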
